A study of Mus musculus with 4 samples.

Results

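Adult Müller glia (adult MG) were compared with postnatal day 2 retinal progenitor cells (P2 RPC), the oldest and the youngest of 4 sorted mouse retinal cell pools whose miRNAs were counted on a nanoString nCounter panel. The comparison takes 2 of the 4 libraries and all 566 probes for mouse miRNAs among the panel's 626 probes. Adult MG came from Rlbp-Cre:tdTomato mice given tamoxifen on 2 consecutive days at an age above postnatal day 21, and their sorted cells were pooled from 40 retinas. P2 RPC came from Sox2-Cre:tdTomato mice given tamoxifen on postnatal days 0 and 1, and their sorted cells were pooled from 8 retinas. In both groups the tamoxifen dose was 75 mg/kg, the Cre was switched on by the drug, and tdTomato-positive cells were collected by flow cytometry. The pools of glia at postnatal day 8 (P8 MG, 52 retinas) and day 11 (P11 MG, 32 retinas, with a title that reads P11/12) came from Rlbp-Cre:tdTomato mice. These mice were also given tamoxifen at 75 mg/kg, and their pools are used here only to place the endpoints. The design text once calls the progenitors adult, whereas every sample label gives them as P2. Cell type, Cre line, age, pool size and assay lane differ together between adult MG and P2 RPC and cannot be told apart.

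Müller glia are the main glial cells of the retina, whose processes span its whole thickness. They arise from the same progenitors that give rise to the retinal neurons, and are among the last retinal cell types to form. A miRNA is a short RNA that lowers the output of mRNAs whose untranslated ends pair with its seed, the stretch from base 2 to base 8. miRNAs that share a seed form a family with largely shared targets, although they may be made from different genes. Several miRNAs are often cut from 1 primary transcript, so that neighbouring hairpins form a cluster.

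The mature sequences below are those on which the family results turn, each written 5′ to 3′ with the seed in capitals, from RefSeq (GRCm38.p6). The families higher in adult MG come first, then let-7, then the families lower in adult MG. The probe for miR-17 also reads miR-106a, and the probe for miR-20a also reads miR-20b.
miR-204: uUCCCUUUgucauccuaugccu
miR-211: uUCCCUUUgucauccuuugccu
miR-125b-5p: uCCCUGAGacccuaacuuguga
miR-125a-5p: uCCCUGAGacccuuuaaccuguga
miR-99a: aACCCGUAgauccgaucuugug
miR-100: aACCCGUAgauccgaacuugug
miR-99b: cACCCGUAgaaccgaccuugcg
miR-29a: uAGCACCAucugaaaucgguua
miR-29b: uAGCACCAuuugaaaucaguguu
miR-29c: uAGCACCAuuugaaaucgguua
let-7b: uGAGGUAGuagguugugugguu
let-7c: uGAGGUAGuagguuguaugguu
let-7i: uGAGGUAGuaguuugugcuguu
miR-16: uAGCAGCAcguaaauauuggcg
miR-15b: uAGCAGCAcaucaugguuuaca
miR-17: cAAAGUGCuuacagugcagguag
miR-20a: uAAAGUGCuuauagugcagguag
miR-93: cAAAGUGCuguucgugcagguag
miR-25: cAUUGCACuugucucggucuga
miR-19a: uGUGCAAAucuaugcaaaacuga

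With positions counted from 1 at the 5′ end, miR-99a and miR-100 differ by the single change U16A. miR-204 and miR-211 differ by A17U, miR-29a and miR-29c by C10U, and let-7b and let-7c by G17A. let-7g and let-7i differ by A17G and A19U. Members this close may be partly read by each other's probe, and no measurement of that was made here.

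With 1 library in each group there was nothing to test a difference against, and p-values are not given. Bracketed ranges are 95% intervals of the counts and cover counting error only. The adult MG lane held 769736 counts, of which 695390 fell on mouse miRNA probes, and the P2 RPC lane held 583699, of which 482118 did. The lanes were scaled on their positive controls and on the 100 most abundant miRNA probes, and values so scaled are called normalized counts. A lane's background was the mean plus 2 SD of its 8 negative probes, which was 71.7 raw counts in adult MG and 60.7 in P2 RPC. After scaling, these thresholds stood at 82.3 and 54.8 normalized counts, so a weak miRNA had to be brighter in adult MG to be seen. Above background were 171 miRNA probes in adult MG and 220 in P2 RPC, of which 149 were above it in both. Of the 6 positive controls, spiked at known amounts, the log2 ratios of adult MG over P2 RPC had an SD of 0.16. The 3 ligation controls lay at -0.64 to -0.15 on the same scale, and the 4 housekeeping mRNAs at -1.24 (Rpl19) to 2.37 (B2m), with an SD of 1.49. The part of the ligation controls in the results was not tested beyond scaling on them.

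A probe was called higher or lower when it stood above background in the higher library, differed by at least 2-fold and had a counting interval that excluded equality. Where the lower library was at background the fold is a bound against its threshold. Of the 242 probes above background in either library, 50 were called higher in adult MG (20.7%) and 40 lower (16.5%), and the rest were neither. Of the rest, 40 were above background in 1 library at a level that did not clear the other library's threshold, so no ratio could be given for them. Differences of at least 10-fold were seen for 10 miRNAs higher in adult MG and 13 lower. The median log2 ratio over the 149 probes above background in both libraries was 0.18. The scatter of adult MG against P2 RPC counts shows both groups of calls well off the diagonal at high counts.

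**Figure D1:**
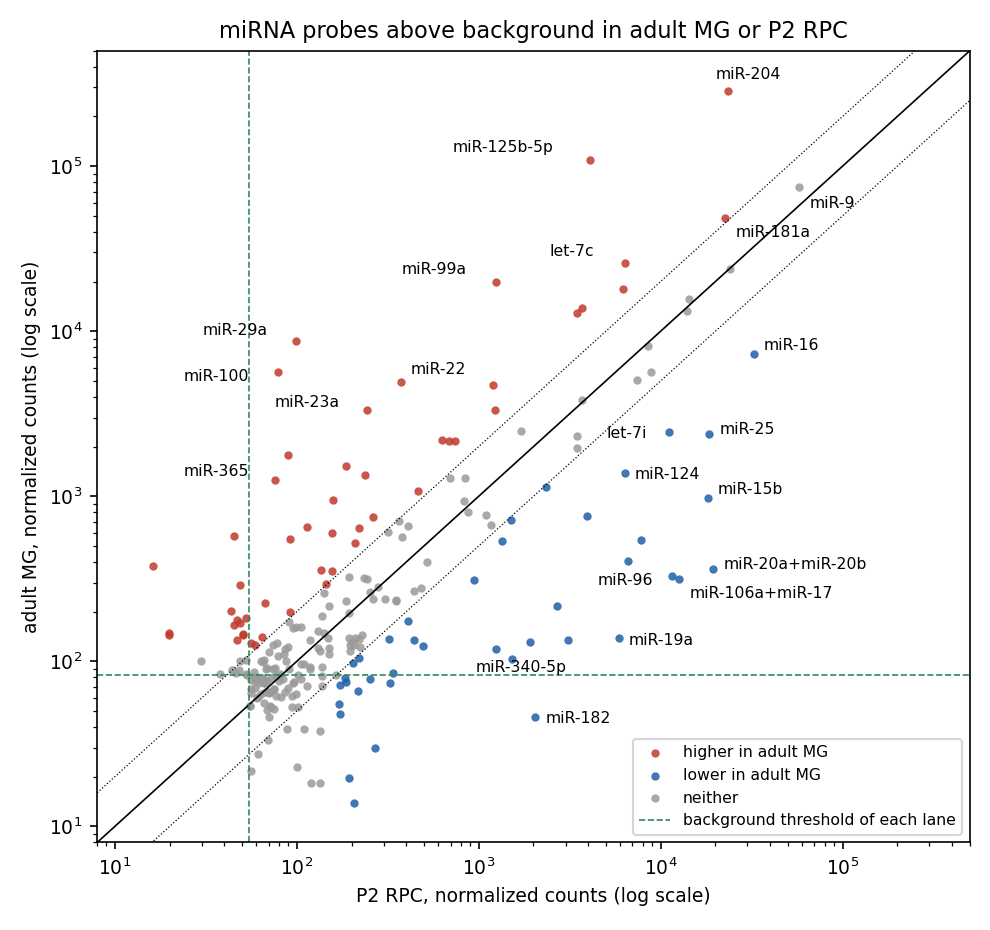
Normalized counts of the 242 miRNA probes above background in either library, adult MG on the vertical and P2 RPC on the horizontal axis, both log scales, 1 point per probe. The solid line marks equal counts, dotted lines a 2-fold difference and dashed lines the 2 background thresholds. miR-204 lies at 284092 in adult MG against 23470 in P2 RPC, and the probe of miR-20a and miR-20b at 362.9 against 19338.

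The miRNA counts of adult MG were far more concentrated in a few species than those of P2 RPC. In adult MG, 3 probes (miR-204, miR-125b-5p and miR-9) held over 50% of miRNA counts, whereas in P2 RPC it took 9. To reach 90% took 23 probes in adult MG and 42 in P2 RPC. The effective number of probes, the exponential of the Shannon entropy of the shares, was 16.7 in adult MG and 44.6 in P2 RPC. In the glia of intermediate age it was 38.0 at P8 and 28.1 at P11. The number of probes needed for 90% did not follow age, since P8 MG took 56 and P11 MG took 39. Background also differed, with negative probes averaging 70.5 raw counts in P8 MG and 50.4 in P11 MG. They averaged 38.6 in adult MG and 35.8 in P2 RPC. These shares include background, and its part in the P8 and P11 numbers was not tested. Without miR-204 the effective number was 28.7 in adult MG and 44.4 in P2 RPC, so the gap shrank but remained. The 10 leading probes of adult MG and of P2 RPC shared 5 members.

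**Figure D2:**
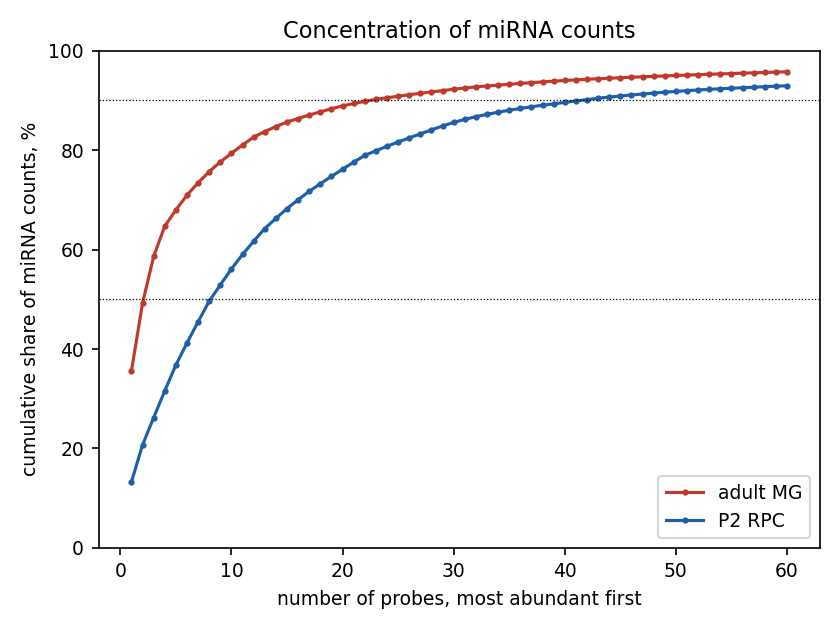
Cumulative share of all miRNA counts (vertical axis, %) held by the most abundant probes (horizontal axis, number of probes) in adult MG and P2 RPC, with dotted lines at 50% and 90%. The adult MG curve is above the P2 RPC curve throughout, crossing 50% at 3 probes against 9.

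In all, 55.0 percentage points of miRNA counts changed hands between the libraries. miR-204 gained 30.2 points and miR-125b-5p gained 12.7, which together made up 77.9% of all share gained in adult MG. The next gains were 2.19 points for miR-99a, 1.81 for let-7c and 1.07 for miR-29a. Losses were spread more widely. The largest were -6.53 points for miR-16, -4.39 for the probe of miR-20a and miR-20b, -4.03 for miR-15b, -3.96 for miR-25 and -3.88 for miR-9. The 10 largest gains summed to 52.1 points and the 10 largest losses to -34.7 points. A share falls when another miRNA takes more of the total. All but 11 of the uncalled probes held a smaller share in adult MG. miR-9, a neural miRNA of progenitors and glia, had 75023 normalized counts in adult MG and 57830 in P2 RPC, yet held 9.40% of adult MG counts against 13.3% in P2 RPC. With miR-204 left out of the total, the miR-9 share was 14.58% in adult MG and 14.03% in P2 RPC, so the loss of share turned into a small gain. Its log2 ratio of 0.38 ran from -0.50 to 0.81 over the scalings tried, so no direction is given for its level. The probe named miR-720, now regarded as reading a piece of a tRNA, had 23810 normalized counts in adult MG and 23921 in P2 RPC, and its share was 2.98% in adult MG and 5.49% in P2 RPC.

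The probes with a known seed, out of the 242, fell into 134 seed families, of which 22 held at least 2 probes. Sequences were matched for 176 of the 242 probes, and 7 more were placed in a family by name. The remaining probes, miR-124 and miR-720 among them, were in no family. The 22 families held 71 probes and 80.1% of miRNA counts in adult MG, against 64.1% in P2 RPC. All members were called higher in 2 of them (miR-204 with miR-211, and miR-29) and all were called lower in 3 (miR-17, miR-19 and miR-103 with miR-107). In 12 families some members were called, all in 1 direction, and in 3 families none was. Only let-7 and miR-99/100 held calls in both directions. Probes differ in efficiency, so a family sum is weighted towards its brighter probes.

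**Figure D3:**
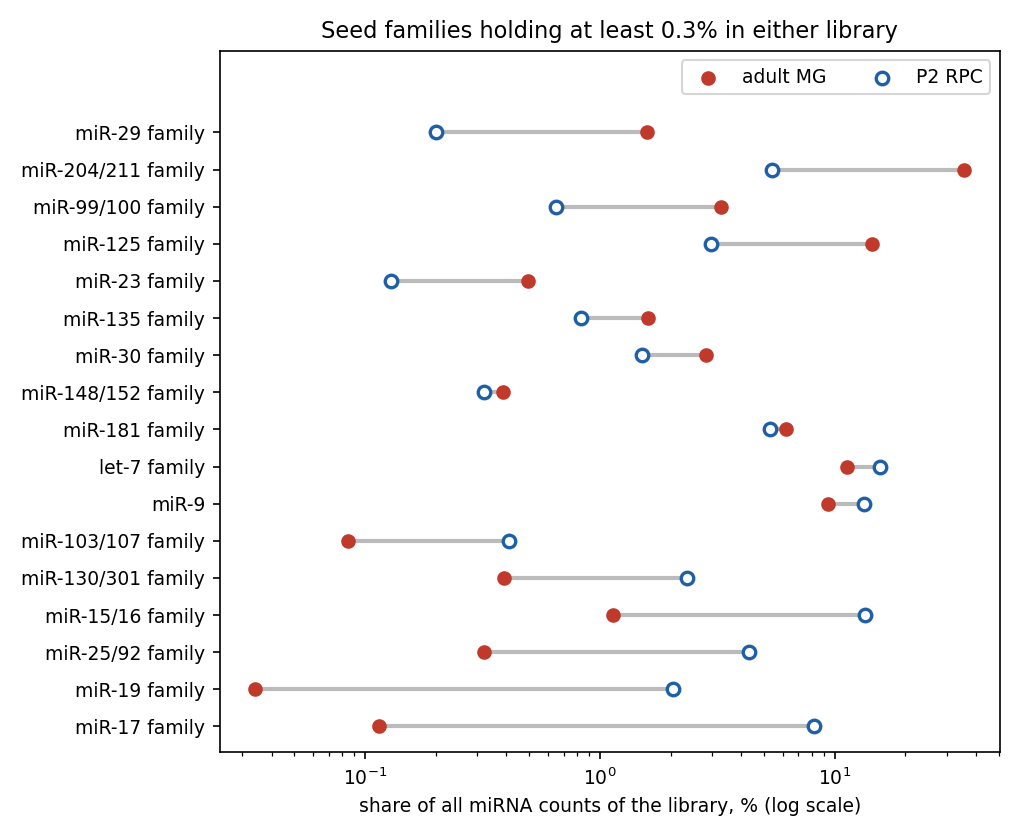
Share of all miRNA counts (horizontal axis, %, log scale) held by each seed family with at least 0.3% in either library, and by miR-9, in adult MG (filled points) and P2 RPC (open points), ordered by the ratio of the shares. The miR-17 family stands at 0.114% in adult MG and 8.13% in P2 RPC, and the miR-204 family at 35.6% and 5.39%.

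The miR-204 family took the largest share of any family in adult MG. It is named for miRNAs carried in introns of Trpm3 (miR-204, chromosome 19) and Trpm1 (miR-211, chromosome 7), and miR-204 is abundant in the pigment epithelium and lens of the eye. miR-204 had 284092 normalized counts in adult MG and 23470 in P2 RPC, a 12.1-fold difference (12.0 to 12.3). Its share was 35.6% (35.5 to 35.7) in adult MG and 5.39% (5.32 to 5.45) in P2 RPC. With age its share stood at 5.39%, 11.9%, 20.5% and 35.6% in P2 RPC, P8, P11 and adult MG. miR-211 had 329 raw counts in adult MG and 18, below background, in P2 RPC, which put it at least 6.89-fold higher. Despite that bound, miR-211 made up only 0.133% of the family in adult MG, and miR-204 the rest.

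The miR-125 and miR-99/100 families were both several-fold higher in adult MG as sums, and in each a different member led in each library. miR-125 is the vertebrate relative of lin-4, a timer of larval stages in Caenorhabditis elegans. The miR-125 family was 8.82-fold higher (8.66 to 8.97), with 14.4% of miRNA counts in adult MG and 2.98% in P2 RPC. miR-125b-5p had 109004 normalized counts in adult MG and 4110 in P2 RPC and was 26.5-fold higher (25.7 to 27.3). miR-125a-5p had 5651 in adult MG and 8895 in P2 RPC, a log2 ratio of -0.65 that was not called. miR-125b-5p therefore made up 95.1% of the family's counts in adult MG and 31.6% in P2 RPC. The opposite arm of the miR-125b hairpin, miR-125b-3p, had 500 raw counts in adult MG and 50, below background, in P2 RPC, and was at least 10.5-fold higher.

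The miR-99/100 family, which has been tied to the mTOR growth pathway in several cell types, was 9.22-fold higher (8.88 to 9.58). miR-100 had 5638 normalized counts in adult MG and 78.6 in P2 RPC, and was 71.7-fold higher (58.0 to 89.7). Its P2 RPC count, 87 raw, was only a little above the threshold of 60.7, and with the mean of the negative probes subtracted its log2 ratio was 6.92 in place of 6.16. miR-99a had 19744 normalized counts in adult MG and 1243 in P2 RPC, and was 15.9-fold higher (15.04 to 16.80). miR-99b had 715 in adult MG and 1508 in P2 RPC and was called lower, 2.11-fold (1.92 to 2.32). Its log2 ratio ran from -1.95 to -0.64 over the scalings, and the call held in 6 of 8. Within the family miR-99b held 2.74% of the summed counts in adult MG, against 53.3% in P2 RPC.

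A double ratio, the adult MG to P2 RPC ratio of 1 probe divided by that of another, needs no scaling between lanes. It cancels constant differences in probe efficiency but not background, which matters where a count is dim. The double ratio of miR-125b-5p to miR-125a-5p was 41.8 (39.9 to 43.7), that of miR-99a to miR-99b was 33.5 (30.1 to 37.3) and that of miR-100 to miR-99b was 151 (120 to 191). With the negative mean subtracted, miR-100 and miR-99b had log2 ratios of 6.92 and -1.14, in place of 6.16 and -1.08. The last double ratio would then be larger than its interval, which covers counting error only. The members not called higher share 1 locus. miR-99b, let-7e and miR-125a lie in 1 cluster within Spaca6 on chromosome 17, and their 4 probes had log2 ratios of -1.08 to 0.05. miR-99a and let-7c, in the equivalent cluster on chromosome 16, had log2 ratios of 3.99 and 2.04. Mature miR-125b is made from genes on chromosomes 16 and 9, and miR-100 lies on chromosome 9. let-7a, listed with miR-100 and miR-125b as the other such cluster, was not called, with a log2 ratio of -0.08. let-7c also has a second gene next to let-7b on chromosome 15, and the panel cannot tell its sources apart. The double ratio of let-7c to let-7e was 3.97 (3.76 to 4.18).

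All 3 members of the miR-29 family, known for targeting mRNAs of collagens and other matrix proteins, were higher in adult MG. As a sum they were 14.5-fold higher (13.5 to 15.5), with 1.59% of miRNA counts in adult MG and 0.201% in P2 RPC. miR-29a had 8709 normalized counts in adult MG and 99.4 in P2 RPC, and its 87.6-fold difference (72.57 to 106.7) was the largest called higher. It was 7585 raw counts in adult MG against 110 in P2 RPC, and its log2 ratio was 6.45, or 7.01 with the negative mean subtracted. miR-29b had 1782 normalized counts in adult MG and 89.5 in P2 RPC, and was 19.9-fold higher (16.3 to 24.7), or 4.93 in log2 with the negative mean subtracted against 4.32 without. miR-29c, at 2174 in adult MG and 687 in P2 RPC, was 3.16-fold higher (2.91 to 3.45), and under total count scaling its log2 ratio was 0.79, below the 2-fold line. The leading member was therefore miR-29a in adult MG (68.8% of the family) and miR-29c in P2 RPC (78.4%). The double ratio of miR-29a to miR-29c was 27.7 (22.53 to 34.02). It would be larger with the negative mean subtracted, where the log2 ratio of miR-29c was 1.70 in place of 1.66. miR-29a shares its cluster on chromosome 6 with a miR-29b gene, and miR-29c shares its own on chromosome 1 with another miR-29b gene.

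Other families were higher in adult MG by smaller amounts. The miR-23 family was 7.07-fold higher (6.49 to 7.72). miR-23a had 3352 normalized counts in adult MG and 242 in P2 RPC, 13.8-fold higher, whereas miR-23b had 606 in adult MG and 317 in P2 RPC, just short of a call. miR-23a shares a cluster on chromosome 8 with miR-27a (2.32-fold higher) and a miR-24 gene (2.18-fold higher), and the double ratio of miR-23a to miR-27a was 5.95 (5.05 to 7.02). The miR-30 family was 3.43-fold higher, with miR-30a, miR-30c and miR-30d called and miR-30b, miR-30e and miR-384-5p not. The miR-135 family was 3.55-fold higher and was nearly all miR-135a, with 12803 normalized counts in adult MG and 3491 in P2 RPC. The miR-181 family was 2.13-fold higher, and 98.6% of it in adult MG was miR-181a. The sums of the miR-30, miR-135, miR-181, miR-27 and miR-148 families came out under 2-fold in at least 1 of the 8 other scalings.

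Among probes with no other family member above background, miR-365 was 16.5-fold higher (13.2 to 20.8), with 1250 normalized counts in adult MG and 75.9 in P2 RPC. With the negative mean subtracted its log2 ratio was 4.79 in place of 4.04. miR-22 was 13.2-fold higher (12.0 to 14.7), with 4932 in adult MG and 372 in P2 RPC. miR-338-3p, known from maturing oligodendrocytes, was 5.70-fold higher (4.69 to 6.97), with 649 in adult MG and 114 in P2 RPC. miR-219, the other listed marker of oligodendrocytes, was below background in both, at 25 raw counts in adult MG and 31 in P2 RPC. Probes numbered miR-1894 to miR-1983 were frequent among the higher calls. They supplied 13 of the 50 higher calls and 1 of the 40 lower ones, out of 21 tested. Over all 242 tested probes 20.7% were called higher and 16.5% lower. The largest fold among these higher calls was that of miR-1927, which had 1331 raw counts in adult MG and 207 in P2 RPC, and was 8.17-fold higher (7.05 to 9.50). Leaving them out left 37 higher and 39 lower calls. That count was chosen after seeing the data.

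The let-7 family was near level as a sum but was rearranged inside. let-7 is the other classic developmental timer first found in Caenorhabditis elegans. Its 10 probes, miR-98 and miR-1961 included, summed to 90180 normalized counts in adult MG and 68200 in P2 RPC. The log2 ratio of 0.40 ran from -0.47 to 0.84 over the scalings, so the direction of the sum was not settled, and the family's share was 11.3% in adult MG and 15.6% in P2 RPC. let-7c had 26071 normalized counts in adult MG and 6354 in P2 RPC, 4.10-fold higher (3.995 to 4.215). let-7b had 17983 in adult MG and 6227 in P2 RPC, 2.89-fold higher (2.81 to 2.97), though under total count scaling its log2 ratio was 0.66. let-7i had 2466 in adult MG and 11148 in P2 RPC, 4.52-fold lower (4.32 to 4.73). miR-1961 was a weak higher call at 258 raw counts in adult MG and 160 in P2 RPC. let-7a, let-7d, let-7e, let-7f, let-7g and miR-98 were not called, with log2 ratios of -0.57 to 0.13.

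As a result of these shifts let-7c and let-7b together led the family in adult MG, at 28.9% and 19.9% of its counts, against 9.32% and 9.13% in P2 RPC. let-7i held 2.74% in adult MG and 16.4% in P2 RPC. The double ratio of let-7c to let-7i was 18.6 (17.6 to 19.6) and that of let-7b to let-7i was 13.1 (12.4 to 13.8). The cluster of let-7a, let-7d and let-7f genes on chromosome 13 had no called member.

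**Figure D4:**
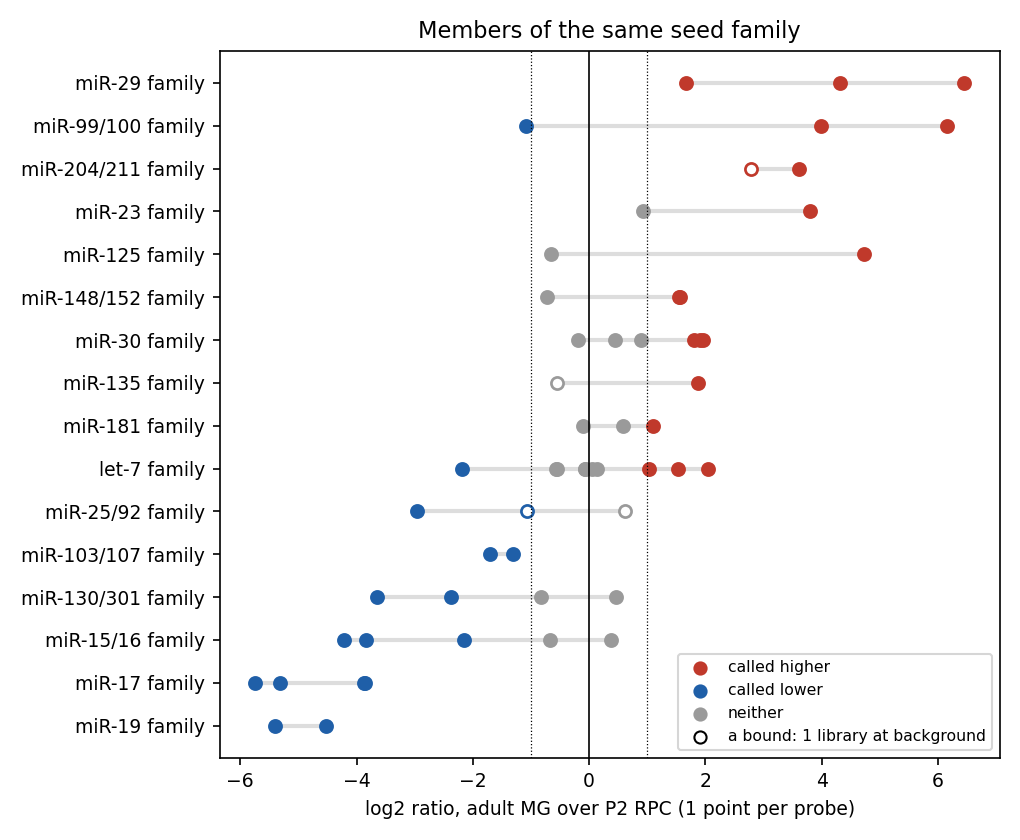
Log2 ratio of adult MG over P2 RPC (horizontal axis) for each probe of the seed families with at least 0.3% of counts in either library, 1 row per family; open points are bounds, dotted lines mark 2-fold and probes with no ratio are left out. The miR-99/100 row runs from -1.08 for miR-99b to 6.16 for miR-100, and all 4 points of the miR-17 row lie at or below -3.86.

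Families listed for dividing progenitors were lower in adult MG. The miR-17 family, part of the miR-17/92 cluster and its relatives that Myc switches on and that favour proliferation, was 38.8-fold lower in adult MG (36.2 to 41.7). It held 0.114% of miRNA counts in adult MG and 8.13% in P2 RPC. The probe of miR-20a and miR-20b had 362.9 normalized counts in adult MG and 19338 in P2 RPC, and was 53.3-fold lower (47.7 to 59.8), the largest difference in that direction. The miR-106a and miR-17 probe had 316 in adult MG and 12653 in P2 RPC, 40.1-fold lower (35.6 to 45.3). miR-93 and miR-106b were 14.5-fold and 14.8-fold lower. The miR-19 family, made from the same clusters under another seed, was 32.9-fold lower (28.9 to 37.6), with miR-19a at 138 normalized counts in adult MG and 5876 in P2 RPC. The adult MG counts of miR-19a, miR-19b, miR-93 and miR-106b were 90 to 120 raw, near the threshold of 71.7, so their folds depend on how background is treated. With the negative mean subtracted miR-19a had a log2 ratio of -5.97 in place of -5.41.

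The miR-106b, miR-93 and miR-25 hairpins lie in 1 cluster within Mcm7, which encodes a subunit of the replication helicase, on chromosome 5, and all 3 were lower in adult MG. miR-25 had 2388 normalized counts in adult MG and 18539 in P2 RPC, 7.76-fold lower (7.42 to 8.12). It was the least changed of the 3, with a double ratio of 1.87 (1.54 to 2.27) to miR-93 and 1.90 (1.53 to 2.36) to miR-106b. With the negative mean subtracted the log2 ratios were -2.98 for miR-25, -4.43 for miR-93 and -4.66 for miR-106b. Both double ratios would then be larger. The other members of its seed family were dim, with miR-92a at 19 raw counts in adult MG and 62 in P2 RPC, where the threshold was 60.7. miR-92a could therefore not be compared, although its neighbours in the miR-17/92 cluster were all called lower.

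The miR-15/16 family, known for targeting cell cycle mRNAs such as those of cyclins, was 6.44-fold lower (6.29 to 6.59), with 1.14% of miRNA counts in adult MG and 13.5% in P2 RPC. miR-16 had 7263 normalized counts in adult MG and 32399 in P2 RPC, 4.46-fold lower (4.34 to 4.58). miR-15b had 973 in adult MG and 18106 in P2 RPC, 18.6-fold lower (17.38 to 19.97), and miR-15a was 14.2-fold lower. miR-15b and a miR-16 gene lie in Smc4, which encodes a subunit of condensin, on chromosome 3, and the double ratio of miR-16 to miR-15b was 4.17 (3.88 to 4.49). miR-16 thus held 79.7% of the family in adult MG and 55.2% in P2 RPC. Of the dim members, miR-195 had 96 raw counts in adult MG and 94 in P2 RPC and miR-322 had 143.5 normalized counts in adult MG and 229.6 in P2 RPC, and neither was called.

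The miR-130 and miR-301 family was 3.28-fold lower (3.15 to 3.42). miR-130b was 12.5-fold lower (10.8 to 14.5), with 216 normalized counts in adult MG and 2690 in P2 RPC, and miR-301a was 5.19-fold lower. miR-130a was not called at 1956 in adult MG and 3477 in P2 RPC, and the double ratio of miR-130a to miR-130b was 7.01 (5.98 to 8.21). The miR-103 and miR-107 family was 2.64-fold lower, and its log2 ratio reached -0.96 under 1 scaling. miR-340-5p, carried in Rnf130, was 10.5-fold lower (8.55 to 12.9), with 119 normalized counts in adult MG and 1247 in P2 RPC. miR-374 was 3.98-fold lower.

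Where several probes of a cluster were called, they went in 1 direction, although a probe cannot tell apart the genes of 1 mature miRNA. Only the 176 tested probes with a matched sequence could be placed in clusters, so neighbours without one are missing. Hairpins on the same strand at most 10 kb apart gave 26 clusters with at least 2 placed probes, some probes counting in more than 1 cluster. All probes were called higher in 5 clusters and all lower in 4, and no cluster held calls in both directions. In 11 clusters some probes were called, and in 6 none was. The imprinted Dlk1-Dio3 region on chromosome 12 gave 2 clusters. Of their placed probes 0 of 6 and 1 of 14 were called, against 37.2% of all tested probes called in either direction. In these clusters 2 of the 6 and 9 of the 14 probes were above background in P2 RPC alone, close enough to the adult MG threshold that most could not reach a 2-fold bound.

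Both arms of a hairpin were on the panel, with at least 1 above background, for 33 hairpins, and for 5 of them all 4 counts were above background. The double ratio of the 5p to the 3p arm excluded 1 in 3 of the 5. It was 0.144 (0.103 to 0.202) for miR-340, where the 5p arm had 104 raw counts in adult MG and 1380 in P2 RPC while the 3p arm had 80 in adult MG and 153 in P2 RPC. It was 2.77 (2.05 to 3.75) for miR-335 and 1.46 (1.04 to 2.05) for miR-532. For miR-125a and miR-423 the interval held 1. The 3p counts of miR-340, miR-335 and miR-532 in adult MG were 78 to 80 raw, close to the threshold, which pulls such ratios towards background.

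The labels were set against miRNAs known to mark retinal and other cell types, in lists made with earlier results of these data known, so their directions are no independent check. Of all 242 tested probes, 20.7% were called higher in adult MG and 16.5% lower. Of 13 miRNAs listed for Müller glia, 9 were above background, 7 were called higher in adult MG and none lower. The 9, miR-9 and miR-125a-5p included, are also found in other cells of the eye and brain. miR-143, miR-145, miR-199a-5p and miR-214, which are also strong in blood vessel wall cells, were below background in both libraries. The 13 probes held 71.3% of miRNA counts in adult MG and 28.0% in P2 RPC. Of 12 probes listed for dividing progenitors, 11 were lower in adult MG, and they held 0.696% of counts in adult MG and 20.2% in P2 RPC.

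miRNAs of photoreceptors were lower in the glial pool than in the progenitor pool. miR-96 had 327 normalized counts in adult MG and 11579 in P2 RPC, 35.4-fold lower in adult MG (31.5 to 39.9). miR-183 had 405 in adult MG and 6645 in P2 RPC, 16.4-fold lower, and miR-182 was below background in adult MG and at least 24.9-fold lower. These are the 3 members of the sensory cluster on chromosome 6. With miR-124, the main miRNA of neurons, the 4 listed photoreceptor probes summed to 1889 raw counts in adult MG (40 to 1211 each) and 29445 in P2 RPC (2267 to 12811 each). miR-124 had 1391 normalized counts in adult MG and 6341 in P2 RPC, 4.56-fold lower (4.29 to 4.85). Of 8 neuronal probes, 6 were tested, 3 were lower in adult MG (miR-124, miR-138 and miR-218) and miR-129-3p was 2.63-fold higher. Over all tested probes 16.5% were called lower and 20.7% higher. The list summed to 1800 raw counts in adult MG (9 to 1211 each) and 7933 in P2 RPC (28 to 7015 each). How much of these counts came from labelled progenitors, their newborn progeny or other sorted cells was not tested, and a smaller part of cells cannot be told apart from less RNA per cell in pooled material.

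Markers of cells outside the neural retina were low in both pools, apart from the pigment epithelium list, which contains miR-204 itself. All 3 pigment epithelium probes were called higher, and miR-184, which is no member of the miR-204 family, had 112 raw counts in adult MG and 62 in P2 RPC. The P2 RPC count of miR-184 was barely above the threshold of 60.7. Its log2 ratio ran from 0.32 to 1.64 over the scalings, and the call held in 5 of 8. The share of miR-204 that may come from pigment epithelium was not tested. Of 6 probes for microglia and white blood cells, 4 were tested and 2 (miR-146a and miR-150) were called higher, against 20.7% of all tested probes. The 6 summed to 595 raw counts in adult MG (1 to 226 each) and 328 in P2 RPC (1 to 157 each). Of the vessel markers, miR-126-3p had 208 raw counts in adult MG and 340 in P2 RPC, and was not called. Of 5 mural and mesenchymal probes 1 was tested, and of 4 liver and muscle probes 2 were. These stood above background in P2 RPC alone and under the adult MG threshold, so they could not be compared. The 3 red blood cell probes and the 9 pluripotent cell probes were below background in both libraries.

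The glia of intermediate age fell between the endpoints for most calls. Of the 50 miRNAs called higher, 36 stood in strict order of age over P2 RPC, P8, P11 and adult MG, and of the 40 called lower, 29 did. Only calls above background in all 4 libraries have measured steps throughout, and of these 24 of 32 and 21 of 28 were in order. The endpoints chose these miRNAs, so an ordered course is partly built in. The median log2 steps of the 32 higher calls were 0.73 from P2 RPC to P8 MG, 0.47 to P11 MG and 1.12 to adult MG. Those of the 28 lower calls were -1.28, -0.55 and -0.71. On the reported scaling the step into adult MG was thus the largest for the higher calls, and the step out of P2 RPC for the lower ones. The steps were not computed under the other scalings. Total count scaling shifts every log2 ratio of adult MG over P2 RPC by -0.87, so which step is largest is not settled. The ages are also unevenly spaced. The step out of P2 RPC also carries the change of Cre line.

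Individual courses differed. miR-100 gained most of its difference early, with a first log2 step of 3.52, as did miR-99a with 2.89. miR-29b and miR-30c gained theirs mostly after P11, with last steps of 2.66 and 1.77. let-7b and let-7c stood lower in adult MG than in P11 MG. They had 17983 and 26071 normalized counts in adult MG, against 21544 and 28676 in P11 MG. Among the lower calls, miR-19a dropped most at the first step, which was -2.67 in log2. let-7i and miR-340-5p dropped mainly at the last, with final steps of -1.65 and -2.40. The miR-183 and miR-96 courses fell most before P11.

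**Figure D5:**
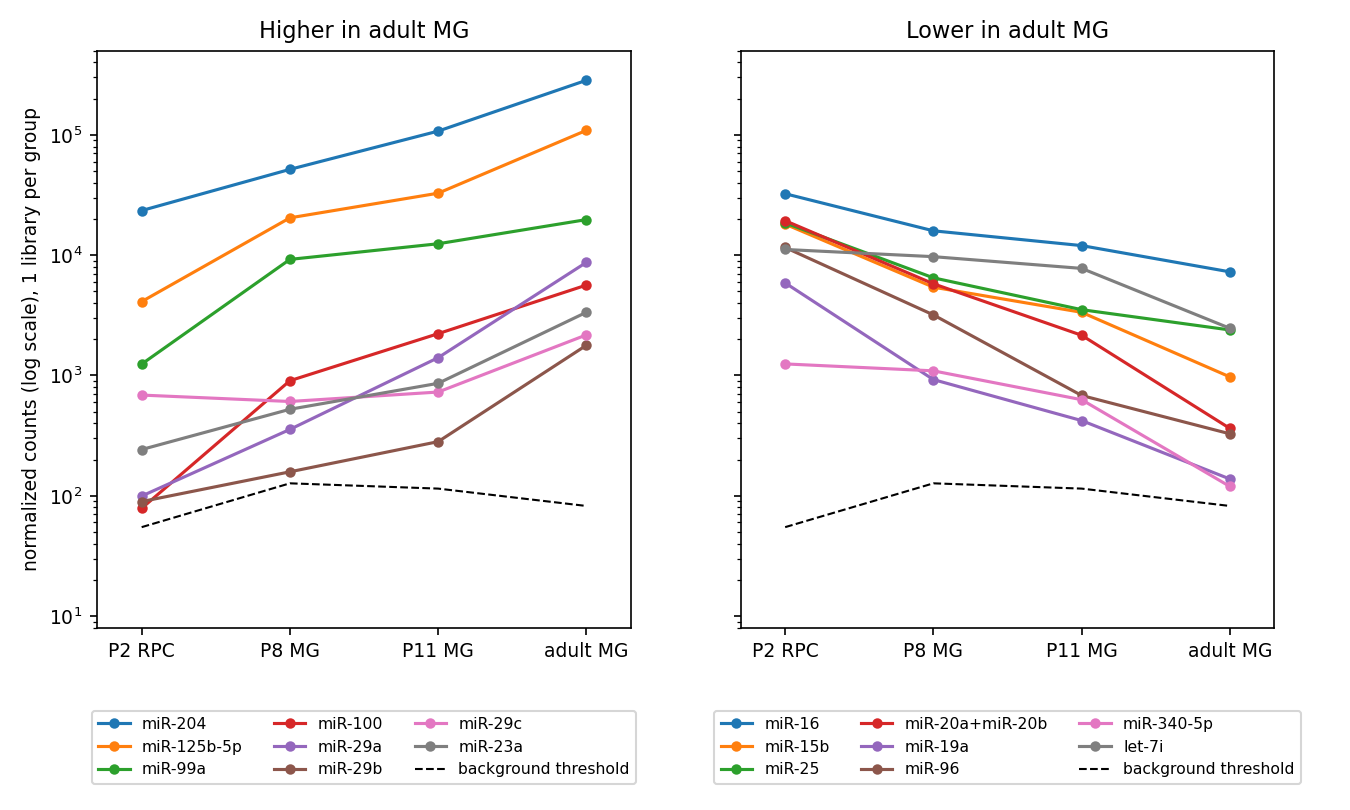
Normalized counts (vertical axis, log scale) of 8 miRNAs called higher and 8 called lower in adult MG, in the 4 libraries in order of age (horizontal axis), with each lane's background threshold as a dashed line. miR-100 rises early and miR-29b late, whereas miR-19a falls early and miR-340-5p late.

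Base composition was described for the called miRNAs with a matched mature sequence. The median GC content was 45.5% for 37 higher calls, 42.9% for 33 lower calls and 45.5% for uncalled probes. The median GC content of the seed was 57.1% for higher calls and 42.9% for both lower and uncalled probes. A uracil stood first in 59.5% of higher calls, 57.6% of lower calls and 47.2% of uncalled probes. Family members share sequence, so these probes are not independent.

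The calls just inside the 2-fold line were miR-1961, miR-181a and miR-504 among the higher ones, at log2 ratios of 1.03 to 1.10. miR-532-5p at 0.94, and miR-23b and miR-328 at 0.93, lay just outside. Among the lower ones miR-410 and the miR-1937a and miR-1937b probe lay just inside, both at -1.05, and miR-369-3p lay just outside at -0.98. Under all 8 other scalings, 22 of the 50 higher calls and 25 of the 40 lower calls held. The 22 include miR-204, miR-211, both arms of miR-125b, miR-99a, miR-100, miR-29a, miR-29b, miR-23a, miR-22, miR-30c and let-7c. The 25 include let-7i, miR-16, miR-15a, miR-15b, miR-25, miR-93, miR-106b, miR-124, miR-340-5p and the miR-17 and miR-19 family members. miR-181a was called in 3 of the 8.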

How the data were processed

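Sorted cells of each group were pooled before RNA extraction, and mature miRNAs were ligated to sequence tags and counted on a nanoString nCounter panel, per the labels' protocols. The deposited raw table holds whole-number counts per probe and lane. The authors' second deposited table, a score per probe, matched raw counts after subtracting a background (the negative probes' mean and 3 SD), times 1 factor per lane (1.34 for adult MG, 1.03 for P2 RPC), floored at 1, within 1 unit for 99.5% and 100.0% of probes. The software version and genome build were not given in the sources used here.

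Only raw counts entered the results, with groups taken from the sample labels. Lanes were scaled by the geometric mean of positive controls and then of the 100 most abundant miRNA probes (factors 1.15 for adult MG and 0.904 for P2 RPC). Ratio intervals are exact conditional binomial, share intervals Clopper-Pearson, family and double ratio intervals counting intervals, all at 95%. Counting error is the only precision 1 library per group gives. Families share seed bases 2 to 8 of RefSeq sequences. Named miRNAs were the members of the families, clusters and marker lists, up to 15 calls per direction with the largest ratio and at least 3 times background, the 10 most abundant probes, the 10 largest share changes, both arms of hairpins and probes next to the threshold. Members and lists were chosen with earlier results of these data known. The steps were tested on simulated counts. Alternatives covered scaling, background, fold threshold and the authors' scores. Python 3.11.15, numpy 2.4.6, scipy 1.17.1, pandas 2.3.3 and edgeR 4.0.16 (TMM factors only) were used.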

Additional observations from a re-analysis of the deposited data

Results flagged for a closer look

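The panel's 33 probes for viral miRNAs were outside the comparison. Their highest raw count was 91 in adult MG, where 2 probes exceeded the threshold of 71.7, and 64 in P2 RPC, where 4 exceeded the threshold of 60.7. The 3 spike-in probes stayed at 12 to 20 raw counts over both libraries.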

How the results depend on the processing

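The alternatives were run on 130 probes, the calls and the uncalled members of the lists. Values could be computed for 84 of them with the authors' scores, 124 with a background of mean plus 3 SD and all 130 with each scaling. No call with a value changed sign. For the scalings this was fixed in advance, since each shifts every log2 ratio by less than the 2-fold line of a call. Relative to the reported scaling, the alternatives shift every log2 ratio by -0.87 (total miRNA counts) to 0.44 (ligation controls). Against 50 higher and 40 lower calls, total count scaling gave 22 and 88, ligation control scaling 78 and 25, the geometric mean of housekeeping mRNAs 36 and 61, and the top 50 probes 61 and 28. With no background threshold 81 were higher, a 1.5-fold line gave 77 higher, and a 3-fold line gave 30 higher and 25 lower. The authors' scores, counted only over probes above 1 in both libraries, gave 41 and 45. The share of the 10 leading probes, 79.4% in adult MG and 56.1% in P2 RPC, became 81.3% and 58.0% with the negative mean subtracted, 80.9% and 57.3% over probes above background, 80.5% and 56.6% without miR-720, 70.6% and 56.7% without miR-204, and 82.6% and 59.2% in the authors' scores. The effective number of probes, 16.7 in adult MG and 44.6 in P2 RPC, became 14.1 and 37.1, 14.3 and 38.6, 15.8 and 44.4, 28.7 and 44.4, and 12.7 and 33.5 under the same changes. The causes were not tested. No comparison was possible for the 324 of 566 probes below background in both libraries. No paired analysis was possible because each group is 1 library.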
